A study of Rattus norvegicus with 192 samples.

Results

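The PFOA dose series consists of 6 TempO-Seq libraries, 1 at each of 0.4, 1.2, 3.7, 11.1, 33.3 and 100 µM, chosen by their titles from 192 libraries in all. PFOA (perfluorooctanoic acid) is a fully fluorinated carboxylic acid long used in making fluoropolymers. TempO-Seq is a targeted form of RNA sequencing that counts ligated pairs of probes. The cells were primary hepatocytes, liver cells isolated from male rats and plated on collagen, and each well was exposed for 24 h. The comparison group was cells given the solvent alone, 0.1% DMSO, which the treated wells received too, and it held DMSO replicates 2 to 9 (8 libraries). DMSO replicate 1 was left out because it stands apart from the other solvent libraries. PFOS (perfluorooctanesulfonate) and S-Bioallethrin, each at the same 6 doses, and 1 library of WY-14,643 at 15 µM served as points of reference on the same plate as PFOA. The labels give no strain or age, and they do not say whether wells came from separate animals or cultures.

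The nuclear receptor PPARα senses fatty acids in the liver. Once bound by a ligand it pairs with RXR on a DNA motif made of 2 half-sites with 1 base between them, called DR1, and switches on genes for the uptake, transport and oxidation of fatty acids. In rats and mice this includes the enzymes of the peroxisome, whose number grows under such ligands, and PFOA and WY-14,643 are known ligands of the rodent receptor. The genes read here belong to 10 lists of this programme, with 108 tested genes, and to further lists on xenobiotic receptors, stress and liver function.

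Promoters were searched for the DR1 letters because 42 of these 108 genes rose together with dose, as described below. The motif AGGTCANAGGTCA was sought on both strands, with at most 1 mismatch, in 33469 RefSeq promoter windows (GRCr8), each the 250 bases before the start. Of all windows 0.368% held it, and of the 7503 tested symbols with an entry 37 did (0.493%). Of the 42 genes 33 had an entry, and 3 of these held a match, shown here in capitals.
Fabp1, chr4:104749090-104749339, plus strand: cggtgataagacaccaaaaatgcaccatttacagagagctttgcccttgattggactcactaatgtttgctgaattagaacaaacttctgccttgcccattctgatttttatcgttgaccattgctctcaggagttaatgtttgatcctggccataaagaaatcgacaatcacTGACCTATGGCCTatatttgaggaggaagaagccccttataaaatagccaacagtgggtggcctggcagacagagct
Acadvl, chr10:55236706-55236955, minus strand: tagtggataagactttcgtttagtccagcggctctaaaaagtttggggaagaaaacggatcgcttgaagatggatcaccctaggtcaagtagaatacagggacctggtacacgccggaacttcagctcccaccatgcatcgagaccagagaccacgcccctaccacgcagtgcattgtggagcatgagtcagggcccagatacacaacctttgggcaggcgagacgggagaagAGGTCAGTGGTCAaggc
Acot12, chr2:24721709-24721958, plus strand: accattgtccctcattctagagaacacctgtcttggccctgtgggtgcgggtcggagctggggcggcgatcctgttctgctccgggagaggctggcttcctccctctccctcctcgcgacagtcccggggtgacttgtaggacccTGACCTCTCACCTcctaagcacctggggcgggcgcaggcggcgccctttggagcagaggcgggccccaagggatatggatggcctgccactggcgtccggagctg
Ehhadh, one of the genes that rose most, is shown as a window with no such match.
Ehhadh, chr11:92746159-92746408, plus strand: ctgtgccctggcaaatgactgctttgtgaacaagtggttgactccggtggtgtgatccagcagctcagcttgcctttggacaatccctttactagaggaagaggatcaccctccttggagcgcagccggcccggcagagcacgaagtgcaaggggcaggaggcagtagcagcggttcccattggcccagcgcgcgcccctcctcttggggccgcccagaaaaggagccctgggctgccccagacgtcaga
These are matches of letters in a short window, not measured binding sites.

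Across the 6 doses, 285 of 11055 tested probes rose (2.58%) and 129 fell (1.17%). The test was the trend over a dose score, log2(1 + dose in µM), in edgeR's quasi-likelihood model with plate as a factor, at a Benjamini-Hochberg adjusted p under 0.05. Trend values below are fitted log2 changes at 33.3 µM ± SE. Levels are CPM, counts scaled to a common library total, in order of dose for PFOA and as a range over the 8 DMSO libraries. Because each dose is 1 library and no separate cultures are named, the p-values reflect scatter among single wells, and this scatter may be technical. On plate 2 alone, with its 3 DMSO libraries, 65 probes rose and 15 fell.

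The 100 µM library stood apart from the rest. It held 2304919 counts, against 3961069 to 5592202 at the other PFOA doses and 2876741 to 8513985 in DMSO, and 52.3% of tested probes lay below their lowest DMSO value. A library score, which is 0 for the mean of DMSO replicates 4 and 6 and 1 for DMSO replicate 5, was 1.83 at 100 µM, -0.18 to 0.45 at the lower doses and -0.15 to 0.18 in the other DMSO libraries. The 100 µM PFOS library was as shallow, with 2269704 counts, and its score was 0.217. Without the 100 µM library 134 probes rose and 48 fell (1.21% and 0.434%), and 105 of the 414 calls were shared. Without DMSO replicate 5, 623 rose and 192 fell (5.64% and 1.74%). Each call named below is therefore also given without the 100 µM library where that ends it. Unless a sentence says otherwise, a named call in a trend held with each of the 14 libraries left out in turn. In a difference of trends, each DMSO library or dose was left out. Calls at a single dose are not covered by this.

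**Figure D1:**
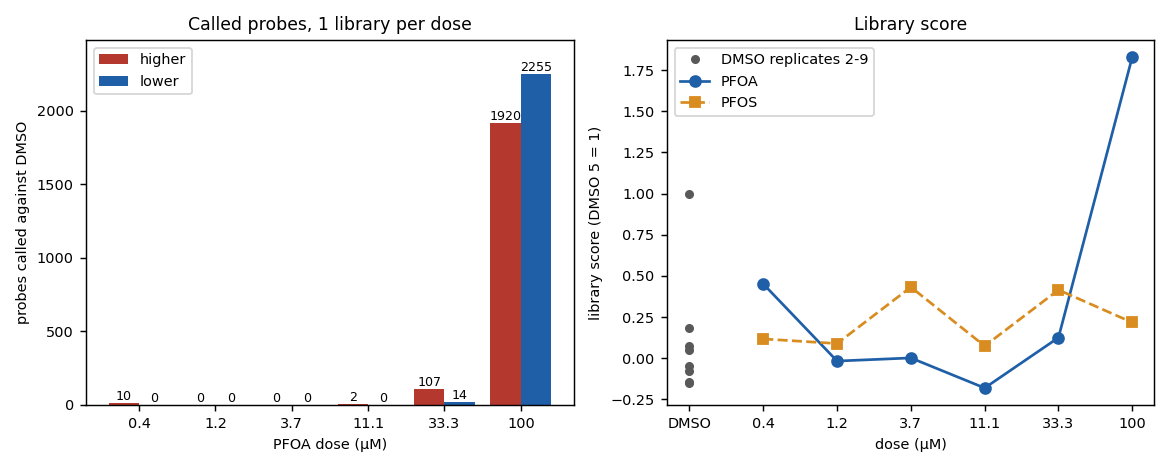
Probes called in each PFOA library against DMSO (left; bars show the number higher and lower at each dose in µM) and the library score of each library (right; points are single libraries). Calls number 121 at 33.3 µM and 4175 at 100 µM, where the score is 1.83.

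Set against DMSO one dose at a time, with the lone library assumed to vary as the DMSO libraries do, few probes moved up to 11.1 µM. At 0.4 µM 10 probes were called, all higher (0.0905%), and 0 were called when the 100 µM library was left out of the model. Without DMSO replicate 2, 3, 4, 6, 7 or 8 the number was 0 as well. At 1.2 and 3.7 µM edgeR called 0, where 332 and 647 had an unadjusted p below 0.05, while DESeq2 gave 4 and 20 calls. At 11.1 µM 2 probes rose (0.0181%), those of Cyp4a1 and Ech1, and leaving the 100 µM library out of the model gave 9 calls. Both calls were lost, with 0 probes called, without DMSO replicate 2, 3, 4, 6 or 8. At 33.3 µM 107 rose and 14 fell (0.968% and 0.127%), and at 100 µM 1920 rose and 2255 fell (17.4% and 20.4%). Of the 108 fatty acid list genes 31 rose and 0 fell at 33.3 µM, and 48 rose and 17 fell at 100 µM.

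Fatty acid genes left the solvent range at lower doses than most probes. Of the 108 genes, 19 lay above all 8 DMSO libraries at 3.7 µM and at every higher dose, 33 from 11.1 µM and 46 from 33.3 µM. The shares over all tested probes were 0.914%, 1.71% and 3.86%. Below all DMSO libraries lay 0 of the 108 from 3.7 µM, 2 from 11.1 µM and 4 from 33.3 µM, against 2.15%, 4.38% and 9.81% of all tested probes. In the trend 42 of the 108 rose and 0 fell, and without the 100 µM library 39 rose, 30 of them also called with it. Of the 42, 24 had a lower CPM at 100 µM than at 33.3 µM and 18 a higher one.

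The enzymes of peroxisomal β-oxidation, which shorten very long and branched fatty acids, rose in 7 of 13 tested genes, with 0 lower and a median trend of 0.94 against -0.04 over all probes. Ehhadh encodes the bifunctional enzyme of the pathway. Its level was 1.96 to 3.82 CPM in DMSO and 3.56, 2.78, 4.65, 16.8, 194 and 115 CPM in PFOA, a trend of 5.35 ± 0.50 (adjusted p = 0.000108). The 3 highest doses stood clear of all solvent libraries, and the value at 3.7 µM lay just above them.

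Other enzymes of the peroxisome peaked at 33.3 µM. Ech1, a dienoyl-CoA isomerase, was at 149 to 197 CPM in DMSO and at 146, 182, 251, 472, 847 and 331 CPM in PFOA (1.77 ± 0.26, adjusted p = 0.00245). Crat, which moves acyl groups onto carnitine, was at 14.6 to 29.3 CPM in DMSO and at 20.2, 28.5, 38.8, 74.6, 141 and 30.8 CPM in PFOA. At 100 µM it was back near the highest solvent value. Its trend of 1.91 ± 0.40 (adjusted p = 0.0178) was not called with DMSO replicate 4 or the 33.3 µM library removed (up to 0.0665). The octanoyltransferase gene Crot rose by 1.42 ± 0.21, the thiolase gene Acaa1b by 0.79 ± 0.13 and the isomerase gene Eci2 by 0.94 ± 0.24. The adjusted p for Eci2, 0.0477, rose past the threshold with 11 of 14 libraries left out (0.0227 to 0.103). The transporter gene Abcd3 was at 1.86 in the trend (adjusted p = 0.0772) and at 2.75 without the 100 µM library (0.0042). Peroxisome biogenesis genes mostly did not pass, with 2 of 15 called. Pex11a, which drives peroxisome division, was at 1.50 to 4.82 CPM in DMSO and at 5.45, 5.05, 6.62, 6.40, 18.8 and 69.4 CPM in PFOA (3.26 ± 0.38, adjusted p = 0.000355). All 6 doses lay above the solvent libraries, as 19 of the 81 other treated libraries of plate 2 did. Pex26 rose by 1.16 ± 0.17.

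Acyl-CoA thioesterases release free fatty acids from coenzyme A. Of 8 tested genes 5 rose and 0 fell. Acot1, the cytosolic form, was at 0 to 1.03 CPM in DMSO and at 0, 0.253, 0, 2.38, 126 and 158 CPM in PFOA. It was near zero up to 3.7 µM and among the well-detected genes from 33.3 µM. Its fitted trend of 8.85 ± 0.90 (adjusted p = 0.000191) rests on few solvent counts, so the levels describe it better than the fold. Acot2, the mitochondrial form, was at 16.1 to 23.3 CPM in DMSO and at 21.1, 18.7, 27.4, 43.7, 123 and 83.7 CPM in PFOA (2.24 ± 0.23). Acot3 rose by 2.35 ± 0.25 and Acot12, an acetyl-CoA hydrolase, by 0.97 ± 0.14. These 4 kept their calls without the 100 µM library, whereas Acot7 (1.54 ± 0.37, adjusted p = 0.038) lost its call without that library (0.451) and without 9 others. Acot1, Acot2 and Acot3 are close relatives and may share probe signal.

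Microsomal ω-oxidation, carried out by Cyp4a enzymes, starts the breakdown of fatty acids from the methyl end. Of 6 tested genes 2 rose and 0 fell. Cyp4a1 was at 34.8 to 56.4 CPM in DMSO and at 35.8, 36.4, 67.6, 218, 662 and 517 CPM in PFOA (3.63 ± 0.29, adjusted p = 3.76e-05). It exceeded every solvent library from 3.7 µM on. Cyp4a2 was at 44.5 to 136 CPM in DMSO and at 57.4, 103, 190, 744, 1453 and 197 CPM in PFOA (3.29 ± 0.63, adjusted p = 0.0125). Its level at 100 µM was far below that at 33.3 µM, and without the 100 µM library its trend was 4.23 (6.28e-05). Cyp4a genes are close paralogs, so single members are uncertain.

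**Figure D2:**
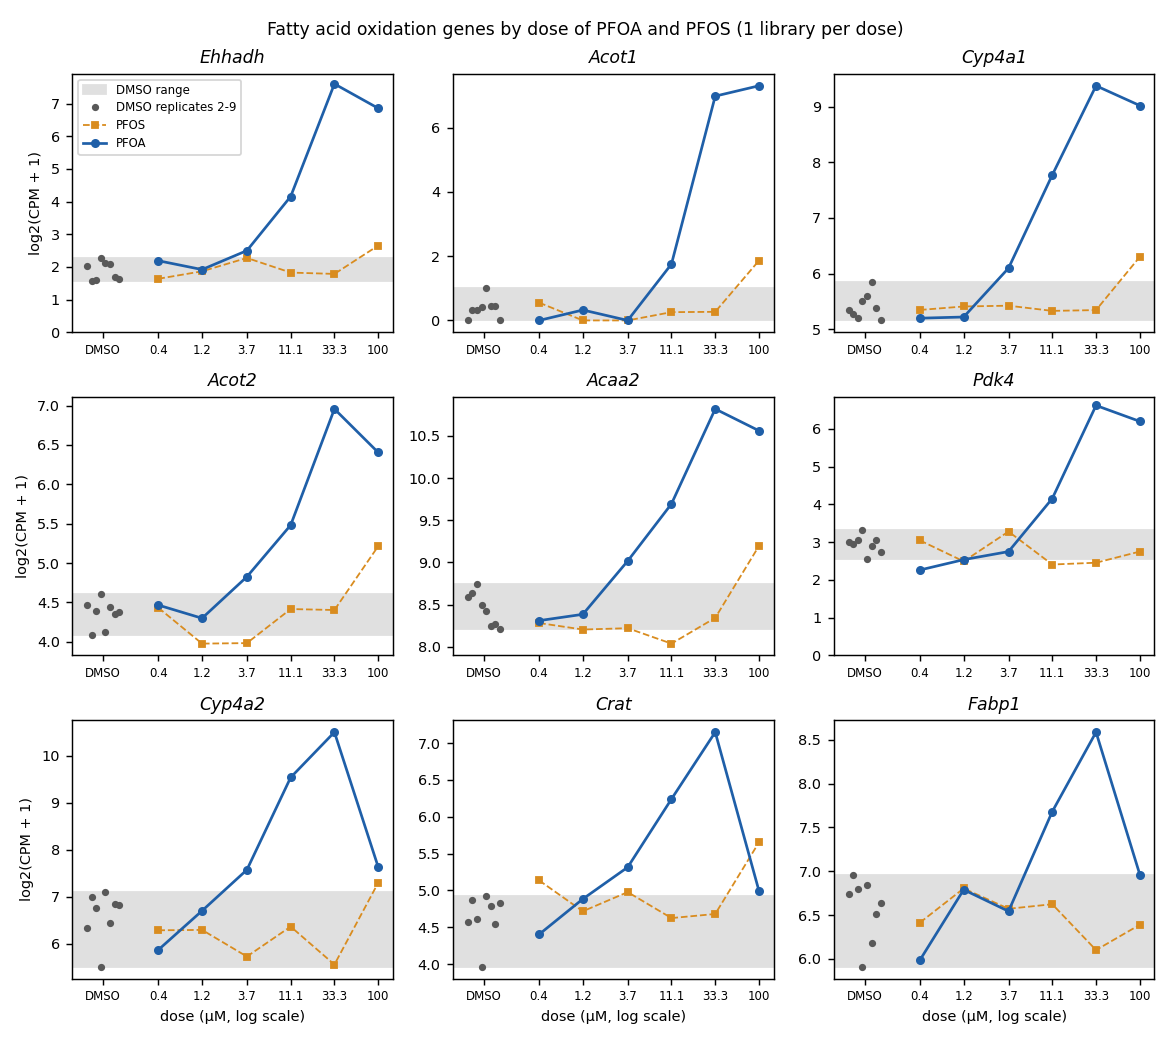
Level of 9 fatty acid genes as log2(CPM + 1) against dose in µM (log scale) for PFOA (blue) and PFOS (orange), 1 library per point, with the 8 DMSO libraries in grey and their range shaded. Ehhadh, Cyp4a1 and Acaa2 leave the solvent range upward from 3.7 µM PFOA, and Cyp4a2, Crat and Fabp1 drop from 33.3 to 100 µM.

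Mitochondrial β-oxidation and the carnitine shuttle, which burn long and medium chains, rose in 11 of 17 tested genes with 0 lower. Acaa2, the thiolase, was at 294 to 428 CPM in DMSO and at 316, 333, 517, 827, 1805 and 1509 CPM in PFOA (2.11 ± 0.18, adjusted p = 4.55e-05). Its 4 highest doses were above all solvent libraries. Cpt1b, a carnitine palmitoyltransferase better known from muscle, was at 2.82 to 6.40 CPM in DMSO and at 1.42, 5.55, 4.47, 21.2, 33.7 and 14.3 CPM in PFOA (2.79 ± 0.48). The liver form Cpt1a was at 12.9 to 26.5 CPM in DMSO and at 32.9 and 41.2 CPM at the highest doses of PFOA, with a trend of 0.87 ± 0.30 that missed the threshold (adjusted p = 0.117). The isomerase gene Eci1 rose by 2.24 ± 0.27, from 218 to 637 CPM in DMSO to 1824 and 2682 CPM at 33.3 and 100 µM. Dehydrogenases for very long, long and medium chains rose by 1.01 ± 0.14 (Acadvl), 0.73 ± 0.14 (Acadl) and 1.58 ± 0.28 (Acadm). Hadh, the short-chain hydroxyacyl dehydrogenase, rose by 1.99 ± 0.26, and the reductase gene Decr1 by 1.21 ± 0.23. The trifunctional protein genes Hadha and Hadhb rose by 1.15 ± 0.18 and 1.22 ± 0.21, and Mlycd, whose product breaks down malonyl-CoA, by 1.28 ± 0.20. Without the 100 µM library Acadm (adjusted p = 0.224), Hadhb (0.176) and Mlycd (0.0607) were no longer called. Cpt2 was called only without that library (0.95, adjusted p = 0.0117, against 0.0918 with it).

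**Figure D3:**
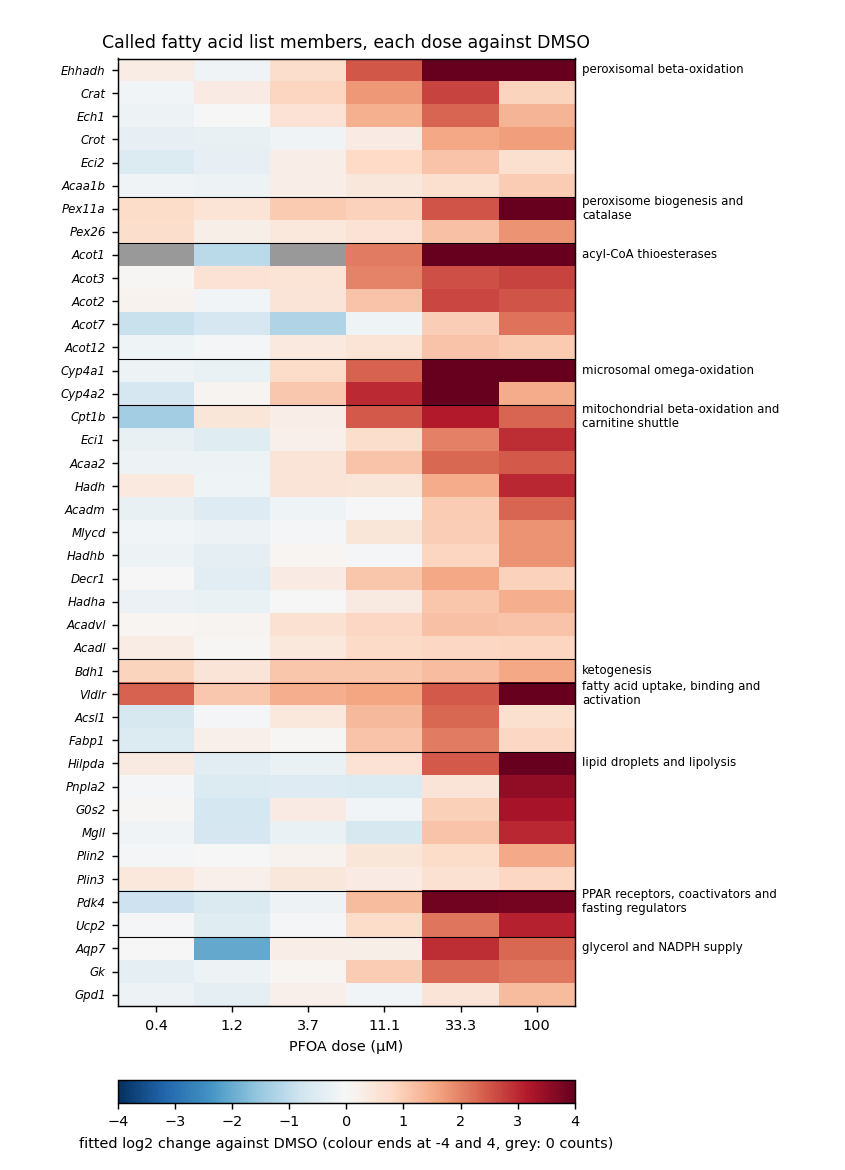
Fitted log2 change of each PFOA library against DMSO (columns, dose in µM) for 41 fatty acid list genes that rose in the trend (rows, grouped by list); grey marks a library with 0 counts. Most rows turn red at 11.1 or 33.3 µM, and the lipid droplet genes Hilpda, Pnpla2, G0s2 and Mgll are darkest at 100 µM.

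Uptake and activation of fatty acids rose in 3 of 12 tested genes. Fabp1, the abundant liver fatty acid binding protein, was at 59.1 to 124 CPM in DMSO and at 62.4, 110, 92.3, 204, 384 and 124 CPM in PFOA (1.47 ± 0.33, adjusted p = 0.027). Acsl1, which activates long chains, had 46.9 to 94.8 CPM in DMSO and 42.0, 65.1, 86.2, 164, 321 and 77.2 CPM in PFOA (1.62 ± 0.38, adjusted p = 0.0341). In both genes 11.1 and 33.3 µM stood above the solvent range and 100 µM lay within it. The call of Fabp1 was lost without DMSO replicate 4, the 1.2 µM or the 33.3 µM library (up to 0.0717), and that of Acsl1 with 9 of 14 libraries left out (up to 0.106). The scavenger receptor gene Cd36 showed the same order, at 111 to 171 CPM in DMSO and 60.0, 106, 137, 242, 340 and 136 CPM in PFOA, but its trend of 0.94 ± 0.31 did not pass (adjusted p = 0.108). Without the 100 µM library it did (1.38, 0.0489).

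Ketone body genes numbered 3. Bdh1, the hydroxybutyrate dehydrogenase, rose by 1.05 ± 0.23 (adjusted p = 0.0216), with the call lost without DMSO replicates 4 or 6 or the 100 µM library (up to 0.0682).

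Among receptors and regulators 2 of 15 tested genes rose, Pdk4 and Ucp2. Pdk4, a kinase that shuts down pyruvate dehydrogenase, was at 4.88 to 9.04 CPM in DMSO and at 3.79, 4.80, 5.72, 16.8, 97.4 and 72.5 CPM in PFOA (3.53 ± 0.41, adjusted p = 0.000355). The uncoupling protein gene Ucp2 was at 21.6 to 37.2 CPM in DMSO and at 26.8, 21.5, 26.6, 48.6, 126 and 182 CPM in PFOA (2.32 ± 0.26). Ppara itself, at 20.6 to 36.3 CPM in DMSO, was at 85.4, 42.9, 48.6, 43.1, 48.2 and 55.5 CPM in PFOA. All 6 values were above the solvent range, with no rise over dose (0.53 ± 0.35, adjusted p = 0.405), and 41 of the 81 other treated libraries of plate 2 were above it too. Fgf21, a fasting hormone, had a trend of -0.62 ± 0.24 (adjusted p = 0.155). Glycerol handling and NADPH supply rose in 3 of 9 genes. Glycerol kinase (Gk) was at 76.1 to 110 CPM in DMSO and at 72.1, 85.3, 98, 194, 451 and 309 CPM in PFOA (1.97 ± 0.22), so it left the solvent range at 11.1 µM. The glycerol channel gene Aqp7 rose by 2.44 ± 0.53 and Gpd1 by 0.84 ± 0.20. The call of Aqp7 was lost without DMSO replicates 4 or 6 or the 33.3 µM library (up to 0.0639), and that of Gpd1 with 8 of 14 libraries left out (up to 0.423).

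Lipid droplet genes rose in 6 of 10 tested cases, and most of that rested on the 100 µM library, without which 1 was called. The exception was Plin2, which coats droplets. It was at 663 to 860 CPM in DMSO and at 729, 813, 852, 1122, 1289 and 1696 CPM in PFOA (1.05 ± 0.14, adjusted p = 0.00103). It rose step by step from 11.1 µM. Hilpda, an inhibitor of the lipase ATGL, was at 29.4 to 119 CPM in DMSO and at 85.1, 52.0, 54.2, 102, 359 and 1906 CPM in PFOA (3.58 ± 0.48). G0s2, another inhibitor of that lipase, was at 74.7 to 252 CPM in DMSO and at 159, 101, 192, 149, 304 and 1169 CPM in PFOA (2.14 ± 0.38). Pnpla2, which encodes ATGL itself, was at 26.3 to 72.0 CPM in DMSO and at 442 CPM at 100 µM (2.25 ± 0.45). The monoglyceride lipase gene Mgll was at 11.9 to 45.2 CPM in DMSO and at 164 CPM at 100 µM (2.0 ± 0.43). Without the 100 µM library the adjusted p was 0.0504 for Hilpda, 0.411 for G0s2, 0.791 for Pnpla2 and 0.495 for Mgll, and Mgll was also lost without DMSO replicates 4 or 6. In DMSO replicate 5, whose library score is 1, Hilpda, G0s2 and Mgll had their highest solvent values. Plin3 (0.54 ± 0.14, adjusted p = 0.0469) lost its call with 12 of 14 libraries left out.

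WY-14,643, a textbook PPARα agonist, was present as 1 library at 15 µM, so its values stand beside those of PFOA with no test between them, and they share the DMSO libraries. Against DMSO 51 probes rose and 8 fell (0.461% and 0.0724%). Of the 108 fatty acid genes 27 rose and 0 fell. In WY-14,643 Ehhadh was at 377 CPM, Cyp4a1 at 1061 CPM, Acot1 at 467 CPM and Pdk4 at 178 CPM, each above all PFOA doses. Fabp1 was at 1557 CPM and Cd36 at 1266 CPM, against 384 and 340 CPM at most in PFOA. Pex11a was the other way round, with 13.9 CPM in WY-14,643 and 69.4 CPM at 100 µM PFOA. Among the 81 other treated libraries of plate 2, 1 was at or above the 33.3 µM PFOA level for each of Ehhadh, Cyp4a1, Acot1, Cpt1b and Pdk4.

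PFOS carries a sulfonate group where PFOA has a carboxylate, and it was run at the same 6 doses on the same plate. Its own trend called 9 probes higher and 3 lower (0.0814% and 0.0271%), and of the 108 fatty acid genes 0 were called. The difference of the 2 trends was higher for PFOA in 272 probes (2.46%) and lower in 173 (1.56%). It was higher for 45 of the 108 fatty acid genes and lower for 0, and 40 of the 42 genes that rose with PFOA were among them. The same PFOA and DMSO libraries gave both results, so this overlap is not independent support. The difference was 4.74 ± 0.53 for Ehhadh, 3.10 ± 0.31 for Cyp4a1, 1.90 ± 0.22 for Acaa2 and 3.41 ± 0.47 for Pdk4. PFOS was not without change at 100 µM. There Cyp4a1 was at 78.0 CPM, Acaa2 at 586 CPM and Crat at 49.4 CPM, each above every DMSO library, while Ehhadh at 5.29 CPM was slightly above 3.82 CPM. The difference for Crat, 1.39 ± 0.37 (adjusted p = 0.0388), passed the threshold with 8 of 14 libraries or doses left out and not with the other 6 (up to 0.328). Leaving out the 33.3 µM dose ended the call for Cyp4a2 (0.0553), Fabp1 (0.0788) and Acsl1 (0.0545).

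NRF2 targets, which defend against oxidants and electrophiles, lay on the other side. In the difference 7 of 19 tested genes were lower for PFOA and 0 higher. Nqo1, a quinone reductase, was at 56.4 to 69.9 CPM in DMSO, at 41.0, 41.7, 41.7, 36.6, 37.1 and 23.9 CPM in PFOA and at 62.2, 80.1, 75.6, 93.3, 125 and 121 CPM in PFOS. PFOA lay below the solvent range at every dose and PFOS above it from 1.2 µM, with a difference of -1.62 ± 0.17 (adjusted p = 3.36e-05). Of the 81 other treated libraries of plate 2, 42 were also below the solvent range for Nqo1 and 23 above it. Akr7a3, an aldehyde reductase, was at 61.1 to 112 CPM in DMSO, at 36.9 CPM in 100 µM PFOA and at 242 CPM in 100 µM PFOS (-1.77 ± 0.20). Akr1b8 differed by -2.16 ± 0.45 and the thioredoxin reductase gene Txnrd1 by -1.33. The Txnrd1 difference (adjusted p = 0.0445) was lost with 10 of 14 libraries or doses left out. Within PFOA alone, Nqo1 fell by 0.74 on the log2 scale (adjusted p = 0.0441), a call that was lost with 10 of 14 libraries left out. With the lowest-dose libraries of 13 other plate 2 chemicals as controls in place of DMSO, a choice made after the data were seen, it was -0.37 (0.404). Akr7a3 (-0.64, 0.0721) and Akr1b8 (-0.95, 0.224) were not called for PFOA alone.

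The xenobiotic export pump gene Abcc2 also separated them. It was at 59.1 to 106 CPM in DMSO, at 70.2, 69.4, 45.6, 34.9, 31.9 and 21.3 CPM in PFOA and at 75.1, 80.1, 92.7, 97.4, 131 and 117 CPM in PFOS. PFOA lay below the solvent range from 3.7 µM and PFOS above it at the highest doses, a difference of -1.74 ± 0.20 (adjusted p = 4.61e-05). The glutathione transferase gene Gsta2 differed by -0.67, a call lost without the 100 µM dose (0.0639). Some differences were not called. For the epoxide hydrolase gene Ephx1 the difference was -0.06 (95% interval -0.30 to 0.18) with a rise in both chemicals. For the haem oxygenase gene Hmox1 it was 0.16 (-0.44 to 0.76), and for Cyp2b2, an indicator of the receptor CAR, 1.0 (-0.06 to 2.07), a wide interval. Without the 100 µM dose 2.4% of all tested probes were higher for PFOA and 1.35% lower. The Cyp2b2 difference was then 2.65 (adjusted p = 0.00644), and the CAR and PXR list went from 1 gene higher and 2 lower for PFOA to 7 higher and 1 lower of 22. In the cell cycle list 5 of 14 genes were lower for PFOA than PFOS, and 2 of 14 without the 100 µM dose. Mki67, a marker of dividing cells, was at 7.38 to 13.6 CPM in DMSO, at 4.03, 7.32, 3.93, 6.40, 4.64 and 0 CPM in PFOA and at 7.84 to 18.5 CPM in PFOS (-2.12 ± 0.43).

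**Figure D4:**
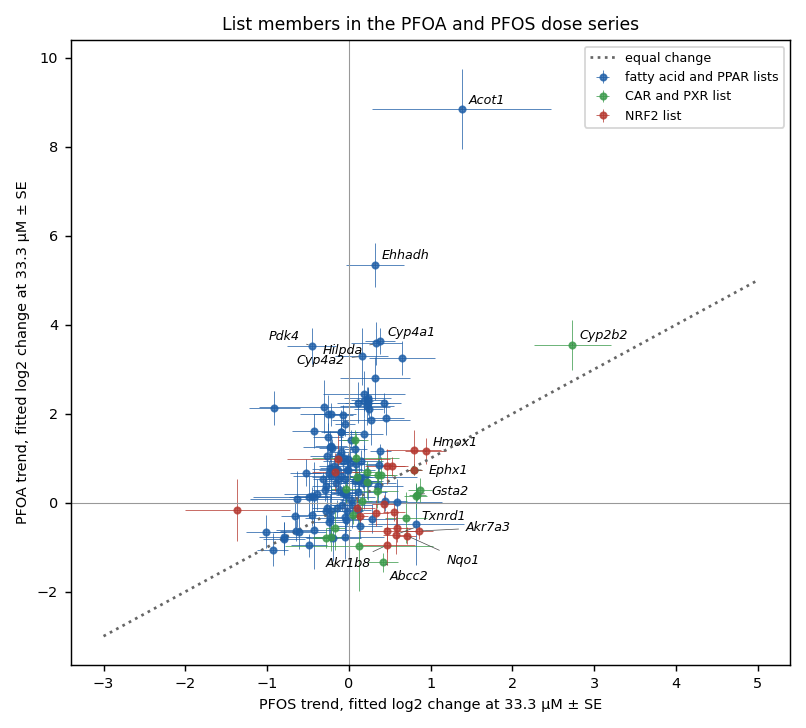
Fitted trend at 33.3 µM ± SE of genes in the fatty acid, CAR and PXR, and NRF2 lists, for PFOS (horizontal axis) and PFOA (vertical axis), both on the log2 scale; the dotted line marks equal change. Fatty acid genes such as Ehhadh (5.35 against 0.32) lie high above the line, while Nqo1, Akr7a3 and Abcc2 lie below it.

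S-Bioallethrin, a pyrethroid insecticide, gave a trend with 159 probes higher and 165 lower (1.44% and 1.49%), and 35 of the 108 fatty acid genes rose and 2 fell. Its trends were 4.48 for Ehhadh and 3.01 for Cyp4a1, against 5.35 and 3.63 for PFOA. The difference between the 2 trends was called for 0 probes by edgeR (0%), although 1375 had an unadjusted p below 0.05, while DESeq2 called 39 higher and 29 lower for PFOA. Without the 100 µM dose 12 probes were higher for PFOA (0.109%) and 0 of the 108 fatty acid genes were among them. The list genes Cyp3a1 (1.27, adjusted p = 0.0232) and Srebf1 (1.91) were, and both are named here after their values were seen.

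Genes induced through the drug-sensing receptors CAR and PXR rose in 4 of 22 tested cases and fell in 1, which was Abcc2 (-1.34 ± 0.22, adjusted p = 0.00506). Cyp2b2 was at 0.695 to 3.26 CPM in DMSO and at 0.949, 0.757, 3.93, 8.04, 26.4 and 9.55 CPM in PFOA (3.55 ± 0.56, adjusted p = 0.00385). It left the solvent range at 3.7 µM, and 8 of the 81 other treated libraries of plate 2 were at or above its 33.3 µM level. Ephx1 rose by 0.74 ± 0.12. Por, which passes electrons to the cytochromes, rose by 1.40 ± 0.23 and lost its call without the 100 µM library (0.182). Cyp3a2 (0.57 ± 0.14, adjusted p = 0.0369) lost its call with 10 of 14 libraries left out. Cyp3a23/3a1 was at 13.2 to 30.4 CPM in DMSO and at 19.7, 24.7, 39.2, 33.1, 50.4 and 9.11 CPM in PFOA, above the solvent range at the middle doses and below it at 100 µM. Its trend was 0.63 ± 0.40 (adjusted p = 0.396), and 1.45 (0.00569) without the 100 µM library. A separate, more abundant entry, Cyp3a1, was at 451 to 519 CPM in the DMSO libraries of plate 2 and was not called in the trend. Whether these 2 entries measure the same gene was not tested. Of the AhR-induced genes 0 of 5 were called, and Cyp1a1 was at 0 to 3.40 CPM in DMSO (0 to 1.28 CPM in the DMSO libraries of plate 2) and at 2.13, 3.53, 3.75, 3.29, 2.82 and 0 CPM in PFOA. Its values at 0.4 to 33.3 µM lay above the plate 2 controls, 38 of the 81 other treated libraries of that plate were above all 8 DMSO libraries, and its trend was 0.69 ± 0.89 (adjusted p = 0.697). In the NRF2 list 3 genes rose and 1 fell in the trend. Hmox1 was at 241 to 595 CPM in DMSO and at 549, 616, 485, 854, 935 and 532 CPM in PFOA (1.16 ± 0.29, adjusted p = 0.0415), with its call lost with 10 of 14 libraries left out. Of the 81 other treated libraries of plate 2, 47 were above the solvent range for Hmox1 and 55 for Cyp3a2. Neither gene was called with the lowest-dose libraries of other plate 2 chemicals as controls, a choice made after the data were seen.

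The integrated stress response, which adjusts translation and amino acid supply under stress, rose in 4 of 15 tested genes with 0 lower. Ddit3, the transcription factor CHOP, was at 43.5 to 79.4 CPM in DMSO and at 46.2, 59.8, 57.8, 81.5, 135 and 108 CPM in PFOA (1.26 ± 0.15, adjusted p = 0.000367). It exceeded the solvent range from 11.1 µM. Trib3 was at 46.7 to 81.4 CPM in DMSO and at 74.2, 61.6, 71.0, 55.4, 78.5 and 243 CPM in PFOA (1.36 ± 0.31), and Ppp1r15a, a phosphatase subunit, at 74.4 to 122 and at 109, 93.2, 73.1, 96.1, 124 and 539 CPM (1.74 ± 0.34). These changed at 100 µM, and their calls were lost without that library (0.802 and 0.705). Trib3 was also lost without DMSO replicates 4 or 6 or the 1.2 µM library. The mitochondrial chaperone gene Hspd1 rose by 1.28 ± 0.23, and its call too was lost without the 100 µM library (0.236). Of 10 tested endoplasmic reticulum chaperones 0 rose and 1 fell.

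In the trend 129 probes fell with dose, and several of those described were also low in other treated wells of plate 2. Slc10a2, a sodium-dependent bile acid transporter, was at 15.5 to 28.5 CPM in DMSO and at 8.54, 16.2, 9.48, 5.48, 5.45 and 1.74 CPM in PFOA (-2.35 ± 0.35, adjusted p = 0.00253). Of the 81 other treated libraries 51 were below its solvent range. Slco1a1, an organic anion uptake carrier, was at 55.3 to 75.0 CPM in DMSO and at 42.2, 38.6, 45.6, 39.9, 25.8 and 14.8 CPM in PFOA (-1.15 ± 0.19). It was below every solvent library at all 6 doses, as 56 of the 81 other treated libraries of plate 2 were. The bile acid synthesis and transport list had 2 of 10 genes lower and 0 higher, Slco1a1 and Akr1c14 (-1.17 ± 0.24), and the latter was not called with DMSO replicate 4 or the 100 µM library removed (up to 0.0751). Pyruvate kinase (Pklr) fell by 1.81 on the log2 scale and the glucose-6-phosphate carrier gene Slc37a4 by 2.26, with calls that did not hold without the 100 µM library (0.0544 and 0.122); Slc37a4 was also lost without DMSO replicate 6. For Pklr 47 and for Slc37a4 51 of the 81 other treated libraries were below the solvent range, and for Akr1c14 24.

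Rem1, a small GTPase, was at 4.52 to 10.0 CPM in DMSO and at 4.51, 4.04, 4.83, 1.46, 0.605 and 0 CPM in PFOA (-3.14 ± 0.48). Pln, a regulator of the calcium pump, was at 6.81 to 12.5 CPM in DMSO and at 2.85, 4.54, 4.11, 2.93, 0.202 and 0 CPM in PFOA (-3.07 ± 0.57). Both were close to 0 at the highest doses. Of the 81 other treated libraries of plate 2, 46 were below the solvent range for Rem1 and 65 for Pln. In WY-14,643 Rem1 was at 0.178 CPM. Kif12, a kinesin, fell by 1.87, and 27 of those libraries were below its solvent range. Coagulation factor V (F5) fell by 0.97 ± 0.17 while prothrombin (F2) rose by 0.86 ± 0.19, and the call of F2 was lost without the 100 µM library (0.411), DMSO replicates 4 or 6 or the 1.2 µM library. Ahsg, the plasma protein fetuin-A, was at 5438 to 6386 CPM in DMSO and at 5079, 4972, 4343, 4440, 3877 and 2415 CPM in PFOA (-0.60 ± 0.13). It was not called with the 100 µM library or DMSO replicate 4 removed (up to 0.0861). Acly, which supplies acetyl-CoA for lipid synthesis, fell by 1.14 and was not called without the 100 µM library (0.0865). It was the 1 called of 15 fatty acid synthesis genes. Below the solvent range lay 44 of the 81 other treated libraries for F5, 59 for Ahsg and 57 for Acly. Fasn, at 26.4 to 70.7 CPM in DMSO and 2.60 CPM at 100 µM, did not pass (adjusted p = 0.214), and 0 of 21 cholesterol synthesis genes were called.

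**Figure D5:**
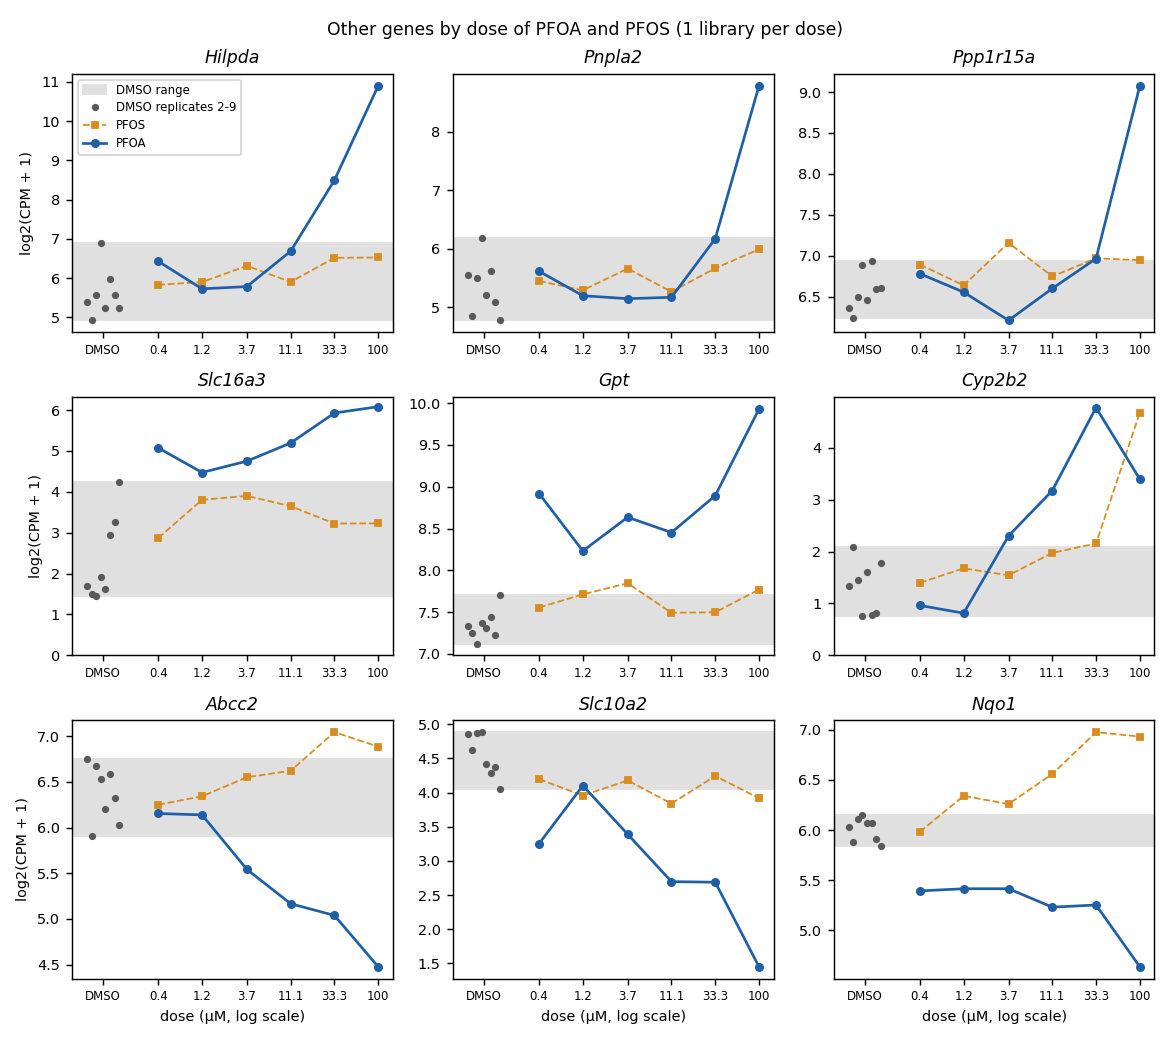
Level of 9 further genes as log2(CPM + 1) against dose in µM (log scale) for PFOA (blue) and PFOS (orange), 1 library per point, with the 8 DMSO libraries in grey and their range shaded. Hilpda, Pnpla2 and Ppp1r15a rise chiefly at 100 µM, Slc16a3 and Gpt are above the solvent range from 0.4 µM, and Abcc2, Slc10a2 and Nqo1 lie lower at the high doses.

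A further set of genes was outside the solvent range at the lowest dose already. Over all tested probes 42 (0.38%) were above all DMSO libraries at every dose from 0.4 µM on and 69 (0.624%) below. Slc16a3, a lactate exporter, was at 1.75 to 17.8 CPM in DMSO and at 32.7, 21.2, 25.9, 35.6, 59.9 and 66.8 CPM in PFOA. The alanine transaminase gene Gpt was at 138 to 207 CPM in DMSO and at 483, 300, 397, 349, 475 and 975 CPM in PFOA, and Ddit4, a stress-induced inhibitor of mTOR, at 5.75 to 11.5 and at 20.6, 17.7, 15.7, 23.0, 31.9 and 79.8 CPM. No order with dose shows between 0.4 and 11.1 µM in these genes. The other treated libraries of plate 2 also lay away from DMSO here, with 31 of 81 above the solvent range for Slc16a3, 50 for Gpt and 44 for Ddit4. Their median for Slc16a3 was 12 CPM, against 1.75 to 2.78 CPM in the DMSO libraries of that plate. The part of the plate position in these levels was not tested. In the trend Slc16a3 (2.69 ± 0.69, adjusted p = 0.0475) lost its call with 11 of 14 libraries left out, and Gpt (1.72 ± 0.33) and Ddit4 (2.24 ± 0.32) without the 100 µM library (0.248 and 0.0751). Mgarp and Gys1 were among the 5 highest of the 10 probes called at 0.4 µM, where 0 were called without DMSO replicate 2, 3, 4, 6, 7 or 8. Mgarp was at 10.2 to 51.4 CPM in DMSO and 77.8 CPM at 0.4 µM, and Gys1, a glycogen synthase, at 4.5 to 11.6 and 19.2 CPM. Vldlr, the lipoprotein receptor, was at 6.42 to 19.7 CPM in DMSO and at 39.1, 17.2, 20.9, 23.8, 42.2 and 95.5 CPM in PFOA, with a call (2.18 ± 0.42) lost without the 100 µM library (0.25). Above the solvent range lay 32 of the 81 other treated libraries of plate 2 for Mgarp, 35 for Gys1 and 30 for Vldlr.

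Genes outside the lists that followed the fatty acid pattern included Slc34a2, a phosphate transporter, at 11.5 to 35.1 CPM in DMSO and at 18.3, 17.4, 23.8, 42.8, 183 and 248 CPM in PFOA (2.87 ± 0.35, adjusted p = 0.000546). Hsdl2, a peroxisomal dehydrogenase-like protein, Retsat, a retinol saturase, and Scd1, the Δ9 desaturase, were picked after their values were seen. Hsdl2 rose by 1.73 ± 0.14 and Retsat by 1.50 ± 0.16. Scd1 was at 279 to 406 CPM in DMSO and at 668, 442, 744, 651, 1171 and 2294 CPM in PFOA (2.16 ± 0.25), above the solvent range at all doses, as 25 of the 81 other treated libraries of plate 2 were.

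Hepatocyte markers were abundant in every library. Their summed level over 13 genes was 34310 to 54850 CPM in DMSO and 32250 to 43800 CPM in PFOA. At 100 µM 1 marker gave 31870 of the 43210 CPM, and 6 of the 13 markers, Ahsg among them, lay below their DMSO range. In that library 52.3% of all tested probes lay below theirs, a similar share. Albumin (Alb) was at 2803 CPM (DMSO 4618 to 5210) and transferrin (Tf) at 1054 CPM (3142 to 3730). The transcription factor gene Hnf4a was at 10.8 CPM (47.3 to 102), and the plasma protein genes Rbp4 and Ambp at 1190 CPM (1947 to 2343) and 477 CPM (1052 to 1402). These markers were picked after their values were seen. Of the 13, 0 rose and 1 fell in the trend. The sum over 12 macrophage markers was 99.1 to 140 CPM in DMSO, with 0 of 10 tested genes called in the trend. In order of dose it was 79.4, 94.9, 76.9, 83.0, 97.2 and 72.5 CPM in PFOA. The ranges did not overlap, but the sum had no order with dose. At 100 µM Cd163 and Lyz2 lay above their DMSO ranges, and Cd14, Clec4f, Marco, Cd68, Csf1r, C1qa and Aif1 lay below theirs. Over all tested probes the shares at that dose were 21.9% above and 52.3% below. Whether the macrophage sum is also low in wells given other chemicals was not tested. Endothelial markers (9 genes) summed to 35.4 to 47.2 and 39.9 to 59.0 CPM. Stellate and mesenchymal markers (11 genes) summed to 50.4 to 88.1 CPM in DMSO and to 61.7 to 83.5 CPM up to 33.3 µM, but 16.5 CPM at 100 µM, and bile duct markers (7 genes) to 25.4 to 54.0, 43.2 to 56.2 and 10.4 CPM. In these bulk wells fewer cells of a type and less RNA per cell cannot be told apart, and the part of cell loss in the 100 µM profile was not tested.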

How the data were processed

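The deposited table holds raw counts of 22253 TempO-Seq probes in 192 libraries, and the authors aligned reads with Bowtie, per the submitters' processing notes (the version is not given in the sources used here). Per the labels, wells lay on 3 plates. From the counts, a probe was tested if it had at least 1.741 CPM, which is 10 counts in a library of median depth, in 6 or more libraries. R 4.3.3, edgeR 4.0.16 with TMM scaling and plate as a factor gave the quasi-likelihood tests, with DESeq2 1.42.0 as an alternative, and the code was tested on simulated data. Trends used log2(1 + dose). No 2 of the 14 PFOA and DMSO libraries were identical. Intervals are 95% and cover the fitted error only. Members and lists were chosen with earlier results of these data known. Named genes were list members called in the trend or in a difference, a panel, the 15 highest and 15 lowest called probes of the trend, the 10 highest and 10 lowest of each difference, and the 5 highest and 5 lowest of each dose. Other alternatives were the scaling, the low-count filter, the plate term, the dose score, the controls and each library left out. Some items are not reported here.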

Additional observations from a re-analysis of the deposited data

Results flagged for a closer look

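Among the 8 DMSO libraries, 13 of 98 values tested had 1 library far from the others by Dixon's 95% criterion. Chance flags about 1 in 20 such groups. DMSO replicate 5 gave 6 of them. It was the highest for Hilpda (119 CPM, next 61.8), G0s2 (252, next 137), Mgll (45.2, next 26) and Por (437, next 316). It was the lowest for Ech1 (149 CPM, next 175) and Acadvl (163, next 207). DMSO replicate 9 was the highest for Slc16a3 (17.8 CPM, next 8.52) and the probe listed as Eno20.000001 (3.4, next 0.822). DMSO replicate 2 was the highest for Ephx1 (1060 CPM, next 904) and Scd1 (406, next 325). DMSO replicate 7 was the lowest for Eci2 (53.4 CPM, next 84.3), replicate 6 the highest for Acot1 (1.03, next 0.376) and replicate 4 the highest for Srebf1 (28.2, next 19.8).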

How the results depend on the processing

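The counts depend strongly on the settings, while directions mostly did not; the cause was not tested. Probes higher and lower in the PFOA trend (285 and 129, 68.8% higher) were 564 and 304 with DESeq2, 1037 and 377 without the plate term, 140 and 57 with doses scored by rank, 84 and 14 with DMSO replicate 1 kept (85.7% higher), 65 and 15 on plate 2 alone (81.2%), 468 and 537 with the library score as a covariate (46.6%), 134 and 48 without 100 µM, 135 and 48 without that dose and DMSO replicate 5, and 0 and 0 in the PFOA libraries alone. Chosen after the data were seen, the lowest-dose libraries of other plate 2 chemicals gave 1752 and 673 as controls and 1727 and 708 added to DMSO. With 1 library left out, the 100 µM library included, the range was 134 to 623 and 48 to 255, and from 136 and 52 among the others; without 33.3 µM it was 601 and 255, without 1.2 µM 166 and 79. Of 77 named genes called, 38 stayed called with each library left out in turn, 38 with DMSO replicate 1 kept and 36 on plate 2 alone. Against PFOS (272 and 173) the counts were 578 and 260 with DESeq2, 89 and 28 with DMSO replicate 1, 173 and 105 on plate 2, 635 and 688 with the library score, 468 and 335 without 100 µM and DMSO replicate 5, and 114 lower without 1.2 µM. Against S-Bioallethrin (0 and 0) they were 39 and 29 with DESeq2, 76 and 99 with the library score, 1 lower without 33.3 µM, 12 higher without 100 µM, and 71 and 10 without 100 µM and DMSO replicate 5.

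Single doses moved too. With DESeq2 0.4, 1.2, 3.7 and 11.1 µM gave 37, 4, 20 and 52 calls, and without the low-count filter 0.4, 1.2, 3.7, 11.1 and 33.3 µM gave 41, 3, 33, 75 and 202. With DESeq2's size factors 0.4 and 11.1 µM gave 0 and 15, and without the plate term 0.4, 3.7 and 11.1 µM gave 2, 5 and 23. With DMSO replicate 1 kept 0.4, 11.1, 33.3 and 100 µM gave 0, 0, 7 and 957, and without 100 µM in the model 0.4 and 11.1 µM gave 0 and 9. With 1 library left out the ranges were 0 to 177 (0.4 µM), 0 to 1 (1.2 µM), 0 to 22 (3.7 µM), 0 to 61 (11.1 µM) and 55 to 333 (33.3 µM). WY-14,643 (59) gave 120 with DESeq2, 113 without the filter, 91 without the plate term, 15 with DMSO replicate 1 and 41 to 128 with 1 library left out. Probes above and below the DMSO range at 33.3 and 100 µM (427 and 1085) were 654 above with TMM-adjusted sizes, 444 below with DMSO replicate 1, and 434 to 665 and 1118 to 2202 with 1 library left out. Trends that changed sign, none of them called, were Alb (0.14 without 100 µM, 0.11 also without DMSO replicate 5), Txnrd1 (0.10 and 0.10), Ppara (-0.014 in PFOA alone), Cyp1a1 (-0.89 in PFOA alone, -0.58 and -0.36 with the lowest-dose controls as or added to controls), Hmgcs1 (0.087, 0.24 and 0.013 in the same order) and Cyp3a1 (-0.17 to 0.47 with 1 library left out). No paired analysis was possible because each dose is 1 library and the DMSO replicate numbers match no treated library. At 2304919 counts, the 100 µM library limits low probes most among the PFOA and DMSO libraries, and the 100 µM PFOS library held 2269704.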
